A study of Mus musculus with 2 samples.

Results

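The mitochondrial ribosomal protein genes are the nuclear genes that encode the proteins of the ribosome inside mitochondria. They were taken as the protein-coding mouse genes whose symbol starts with Mrpl or Mrps followed by a digit, with pseudogenes (symbols ending in -ps) left out. The rule found 77 genes among 43346 Ensembl genes, of which 21474 were protein coding. A further gene that fits the rule by its symbol was not analysed here. Placed by the ribosome structure, 50 members were counted in the large subunit and 27 in the small subunit. The 27 include Mrps36, kept there as mS36, although its protein has since been assigned to the oxoglutarate dehydrogenase complex. Mrps30 and Mrps18a carry small-subunit symbols and encode the large-subunit proteins mL65 and mL66. The members lie on 17 chromosomes, with at most 11 on one of them.

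Poly(A)-selected RNA was sequenced as paired ends from primary erythroblasts, the nucleated precursors of red cells, isolated as Ter119+ cells from mouse liver at embryonic day 14.5. Male and female embryos were pooled, and the labels give no strain, mutation or treatment. The series holds 1 group of 2 libraries, called library 1 and library 2 here after the biological replicate numbers in the labels. Both carry the same donor entry and separate biosample entries, so part of the spread between libraries may be technical, and p-values between them cover only these libraries.

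Mitochondria keep a small genome whose messenger RNAs encode core subunits of the respiratory chain, and these are translated by a dedicated ribosome. All proteins of that ribosome are encoded in the nucleus, made in the cytoplasm and imported. Some belong to families shared with bacterial ribosomes, while others were added in the mitochondrial lineage, and erythroblasts need mitochondria for heme synthesis until they discard them late in maturation.

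The depth was 51190555 expected counts in library 1 and 44256287 in library 2. Outside the globins, which dominate erythroid RNA, it was 14155918 and 12299432. Levels are given as TPM, a relative abundance corrected for transcript length, and means are ± SD over the 2 libraries (n = 2). Marker genes were read against the labelled cell type. The 5 erythroblast markers (Slc4a1, Klf1, Gata1, Alas2 and Epor) averaged 43.1 to 676 TPM and summed to 1269 TPM in library 1 and 1600.3 TPM in library 2. The 15 markers of hepatocytes, macrophages, other leukocytes, megakaryocytes and endothelium averaged 0.005 to 7.03 TPM and summed to 20.2 and 26.2 TPM, with the endothelial gene Pecam1 lowest and the hepatocyte gene Apoa1 highest. Any part of these other cells in the member levels was not tested. In bulk RNA, fewer cells of a type and less RNA per cell cannot be told apart.

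All 77 members had counts in both libraries. A level of 1 TPM or more in both libraries, called detected here, was reached by 60 members (77.9%), against 4296 of all 21474 protein-coding genes. Another 15 members stayed under 1 TPM in both libraries, and 2 crossed that level in only 1 library. The median member level was 3.35 TPM in library 1 and 3.94 TPM in library 2 (3.65 ± 0.417), beside 0.01 and 0.02 TPM for all protein-coding genes and 4.74 and 5.24 TPM for detected protein-coding genes. Over detected members alone the median was 6.57 TPM, beside 4.99 TPM for detected protein-coding genes, each a mean of the 2 library medians. The median of detected members thus lay above that of detected genes and between their quartiles of 2.29 and 14.5 TPM. Summed over members, the level was 689 and 758 TPM (723 ± 48.9), which was 0.492% and 0.487% of the TPM outside the globins.

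The members were far from equal, although their protein products meet in one particle with mostly a single copy of each. The quartiles of the mean level were 1.17, 3.72 and 12.4 TPM, and 21 members reached 10 TPM or more. The highest member stood 1088-fold above the lowest in library 1 and 475-fold above it in library 2. The 8 highest members held 49.3% ± 0.586 of all member TPM. The 25 highest members held 81.8% ± 1.1 and the 26 lowest held 2.75% ± 0.112. The order of the members was nearly the same in both libraries, with Spearman's rho 0.982 and Pearson's r 0.980 on log2(TPM + 1) across the 77 members, a description over genes of the same 2 libraries.

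**Figure D1:**
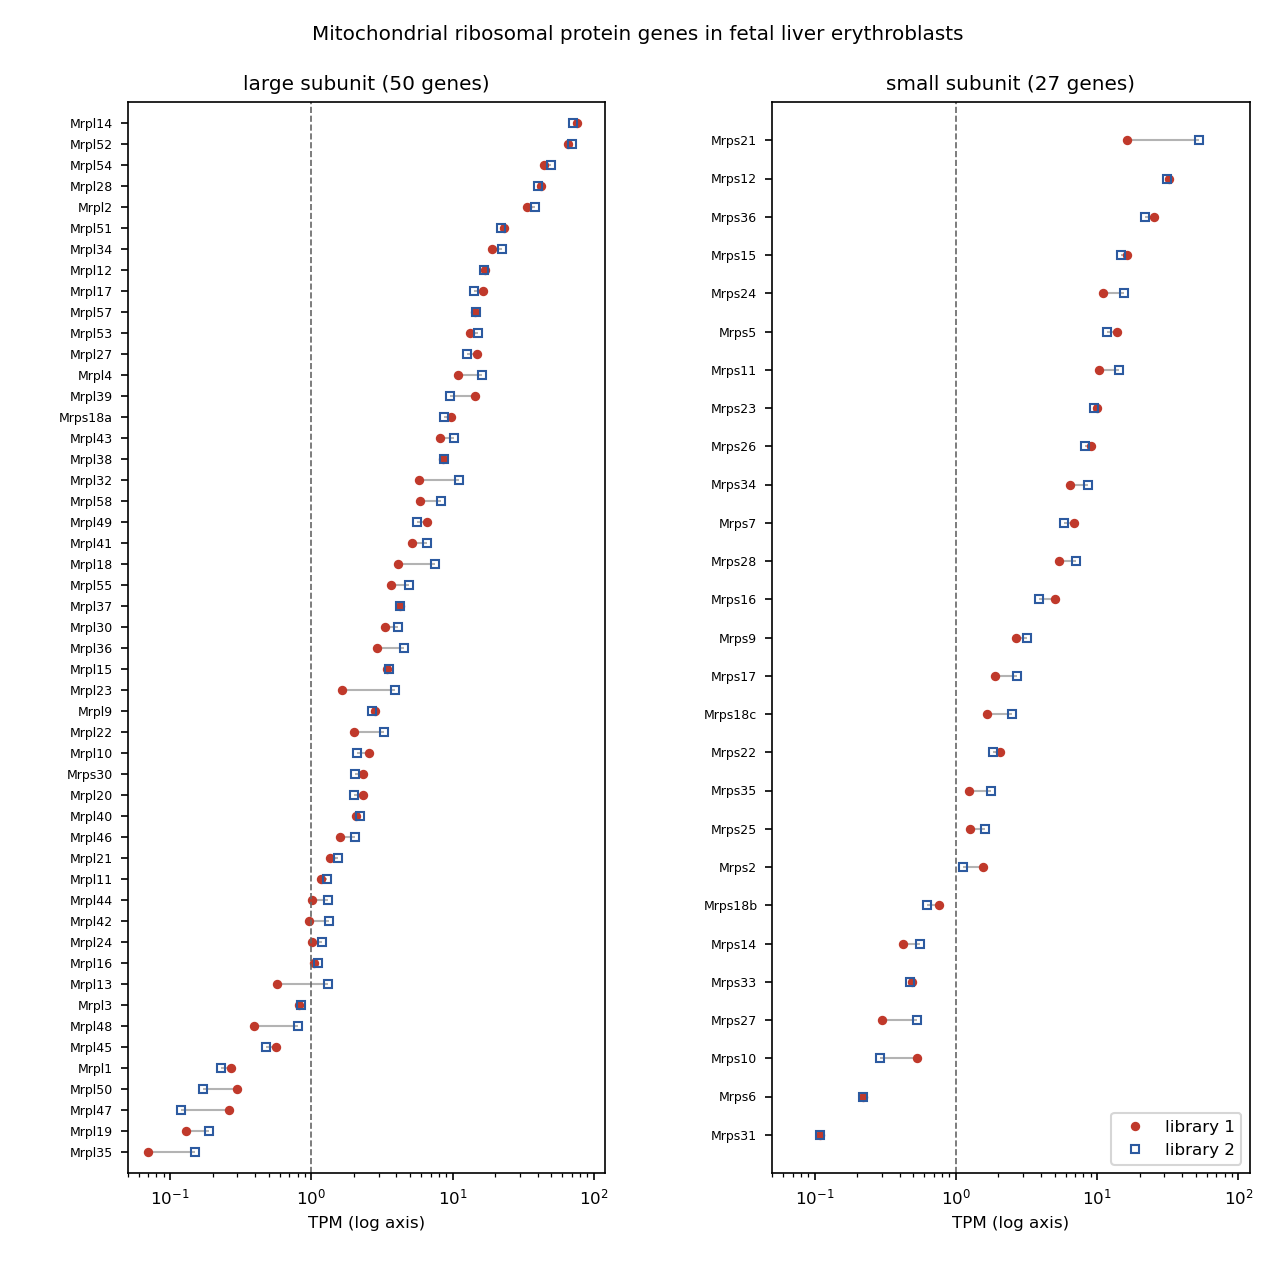
Level of each mitochondrial ribosomal protein gene in TPM (log axis) in library 1 (filled circles) and library 2 (open squares), with large-subunit genes on the left and small-subunit genes on the right, and a dashed line at 1 TPM. Mrpl14 leads at 76.2 and 71.2 TPM, Mrps21 shows the widest gap among the high genes, and 15 genes lie left of the line in both libraries.

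Mrpl14 (chromosome 17, 45686322 to 45698495, plus strand, mm10), which encodes uL14m, a protein of the face of the large subunit that meets the small subunit, was the highest member, with a level of 76.2 TPM in library 1 against 71.2 TPM in library 2. Mrpl52 (chromosome 14, 54426909 to 54429756, plus strand), for the mitochondria-specific mL52, had 66.0 and 70.0 TPM. Mrpl54, for mL54, had 44.1 and 49.9 TPM. These 3 genes and Mrpl28, for the bacterial-type bL28m at 42.6 and 40.6 TPM, were the highest 4 members by mean TPM. The next was Mrpl2, for uL2m of the peptidyl transferase region, at 33.7 and 38.5 TPM. Among small-subunit genes, Mrps12, for the decoding-centre protein uS12m, had 32.3 and 31.4 TPM. Mrps36 had 25.3 and 21.7 TPM, and its protein has since been assigned to the oxoglutarate dehydrogenase complex. Mrps21, for bS21m, was uneven, with 16.3 TPM in library 1 and 53.1 TPM in library 2. Mrpl14 and Mrpl52 differed by less than the sum of their SDs, at 73.7 ± 3.5 TPM for Mrpl14 and 68.0 ± 2.86 TPM for Mrpl52, as did Mrpl54 and Mrpl28, while Mrpl52 and Mrpl54 were further apart than their SDs.

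At the other end, Mrpl35 (chromosome 6, 71812997 to 71826969, minus strand), for bL35m, had 0.07 TPM in library 1 and 0.15 TPM in library 2, from 23 and 40 counts. Mrps31 (chromosome 8, 22411361 to 22429665, plus strand), for mS31, had 0.11 TPM in both, from 15 and 12 counts. Mrpl19, for bL19m, had 0.13 and 0.19 TPM. These levels were above 0 but rested on few reads, so their order is not fixed by the data. Mrpl47, for uL29m at the tunnel exit, had 0.26 and 0.12 TPM, Mrps6, for the platform protein bS6m, 0.22 and 0.22 TPM, and Mrpl50, for mL50, 0.30 and 0.17 TPM. Mrpl1, for uL1m of the mobile stalk beside the exit site for spent tRNA, had 0.27 and 0.23 TPM. Mrps10, for uS10m of the small-subunit head, had 0.53 and 0.29 TPM. These 8 genes, the lowest by mean TPM, each encode a protein of the assembled ribosome and together summed to 1.89 TPM in library 1 and 1.48 TPM in library 2.

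Promoter windows are shown for the 3 highest members with a RefSeq entry, for Mrps12, which starts back to back with the serine tRNA synthetase gene Sars2, and for the lowest member whose entry meets the limit on distance below, so that high and low genes can be compared. RefSeq held a window for 68 of the 77 members. Each runs from 250 bases before the start to 50 bases from it, 5′ to 3′ on the gene's own strand, in build GRCm38.p6, and the ones printed begin within 100 bases of the GENCODE start. The windows are chr17:45686099-45686398 (plus strand) for Mrpl14, chr14:54426659-54426958 (plus) for Mrpl52, chr7:28741772-28742071 (minus) for Mrps12, chr17:26123253-26123552 (plus) for Mrpl28 and chr8:22411090-22411389 (plus) for Mrps31. Capitals mark matches, on either strand, to GCGCA and GCGC with any 1 base between them (the motif of NRF1, a regulator of nuclear genes for mitochondria), CCGGAAG (the ETS family, which includes GABP) or AAGATGG (YY1).
Mrpl14: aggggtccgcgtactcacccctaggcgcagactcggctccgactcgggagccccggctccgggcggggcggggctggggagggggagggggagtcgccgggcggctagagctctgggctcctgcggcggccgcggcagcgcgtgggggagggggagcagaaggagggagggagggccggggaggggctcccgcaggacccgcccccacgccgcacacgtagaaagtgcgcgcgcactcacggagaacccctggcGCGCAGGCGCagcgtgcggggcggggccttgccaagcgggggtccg
Mrpl52: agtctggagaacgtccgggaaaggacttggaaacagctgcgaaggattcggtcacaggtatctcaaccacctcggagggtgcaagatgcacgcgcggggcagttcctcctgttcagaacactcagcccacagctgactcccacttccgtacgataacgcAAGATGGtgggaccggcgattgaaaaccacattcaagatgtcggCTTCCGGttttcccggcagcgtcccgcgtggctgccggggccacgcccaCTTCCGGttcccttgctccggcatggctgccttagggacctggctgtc
Mrps12: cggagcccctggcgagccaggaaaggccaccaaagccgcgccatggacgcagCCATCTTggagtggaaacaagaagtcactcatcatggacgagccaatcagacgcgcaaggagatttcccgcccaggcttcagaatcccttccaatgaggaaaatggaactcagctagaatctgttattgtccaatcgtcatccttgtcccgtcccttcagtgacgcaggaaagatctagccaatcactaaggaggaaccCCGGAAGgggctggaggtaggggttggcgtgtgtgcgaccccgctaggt
Mrpl28: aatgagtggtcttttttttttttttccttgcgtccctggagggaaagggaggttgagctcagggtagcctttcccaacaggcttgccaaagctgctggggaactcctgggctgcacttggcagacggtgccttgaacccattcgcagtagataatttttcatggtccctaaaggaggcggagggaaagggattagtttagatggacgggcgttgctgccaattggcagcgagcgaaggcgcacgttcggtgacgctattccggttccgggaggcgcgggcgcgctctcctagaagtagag
Mrps31: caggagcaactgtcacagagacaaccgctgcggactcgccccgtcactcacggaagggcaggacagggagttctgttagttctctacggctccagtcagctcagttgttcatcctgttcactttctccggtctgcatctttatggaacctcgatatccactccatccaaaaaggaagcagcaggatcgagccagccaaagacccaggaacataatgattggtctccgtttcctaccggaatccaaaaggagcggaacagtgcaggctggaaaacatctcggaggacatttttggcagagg

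The Mrpl14 window held 1 match, to the NRF1 letters. The Mrpl52 window held 2 ETS matches and 1 YY1 match, the Mrps12 window held 1 of each of these 2, and the Mrpl28 and Mrps31 windows held none of the 3. Of the 68 members with a window, 50 had an entry within 100 bases of the GENCODE start, and the shares below use all 68. Over these 68 members, the NRF1 letters occurred in 19.1%, beside 6.96% of 16316 protein-coding promoters and 13.6% of 3455 promoters of detected protein-coding genes. For the ETS letters the shares were 33.8%, 12.4% and 24.2%, and for the YY1 letters 19.1%, 6.47% and 9.35%. At least 1 of these 3 motifs stood in 58.8% of member windows, against 23.1% of all windows and 40.5% of those of detected genes. Member windows held these letters more often than either comparison set, less so against detected genes, a count given without a test. For 4 general promoter elements the members were at or below the detected genes. The GC box GGGCGG was in 50% of member windows and 69.3% of windows of detected genes, CCAAT in 38.2% and 41.6%, the E-box CACGTG in 7.35% and 11.2%, and TATAAA in 5.88% and 6.43%. Of 2 motifs bound by erythroid factors, the GATA letters AGATAA were in 14.7% of member windows (10 genes), against 9.60% of all windows and 5.82% of windows of detected genes, and the KLF letters CCNCNCCC in 63.2% and 70.0%. The KLF and GC-box letters can overlap. Members with any of the NRF1, ETS and YY1 letters had a median of 6.70 TPM, against 1.98 TPM for members with none, and Mrpl28 at 41.6 ± 1.46 TPM had none. Such a gap was not limited to these 3 motifs. Medians with and without the letters were 5.17 and 2.26 TPM for the GC box, 4.36 and 2.71 for CCAAT and 3.72 and 2.92 for the E-box. The order was reversed for TATAAA (2.06 and 3.73), the GATA letters (1.76 and 4.27) and the KLF letters (2.92 and 3.72). A match describes the letters in the window and is not evidence of binding. Mrpl54, Mrpl4, Mrpl15, Mrpl13, Mrps35, Mrpl19, Mrps34, Mrps28 and Mrpl38 had no window in the table.

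By subunit, the large-subunit genes had a median of 3.39 TPM in library 1 and 4.19 TPM in library 2, with 40 of 50 detected. Small-subunit genes had 2.67 and 3.17 TPM, with 20 of 27 detected. The ratio of the medians was 1.27 and 1.32 (1.29 ± 0.0357), but in CPM, counts scaled to the library total without length correction, it was 0.960 and 1.63, so the order of the subunits depended on the unit in library 1. Proteins of bacterial families (47 genes) had a median of 2.90 and 3.91 TPM, and mitochondria-specific proteins (30 genes) had 4.71 and 4.94 TPM. The spread within each class was much wider than the distance between classes.

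Around the catalytic core of the large subunit, Mrpl2 was highest and Mrpl3, for uL3m, lowest at 0.82 and 0.85 TPM. Mrpl27, for bL27m near the peptidyl transferase site, had 14.9 and 12.6 TPM. Genes of the lateral stalks, which receive translation factors and release tRNA, ranged from Mrpl1 to Mrpl12 at 17.1 and 16.8 TPM. Mrpl12 encodes bL12m, the stalk protein present in several copies per ribosome. Its stalk partners Mrpl10, for uL10m, at 2.56 and 2.12 TPM and Mrpl11, for uL11m, at 1.17 and 1.29 TPM were several fold lower. Around the exit of the nascent peptide tunnel, Mrpl17, for bL17m, had 16.5 and 14.2 TPM, while Mrpl47 was lowest of 7. Mrpl45, for mL45, which in human mitochondria anchors the ribosome at the inner membrane, had 0.56 and 0.48 TPM.

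The quartiles were 10.6-fold apart for all members and 3.48-fold apart for the 5 genes of the small-subunit body. For the 7 genes of the central protuberance they were about as close, 3.27-fold apart. Mrpl38, for mL38, was the highest at 8.63 and 8.77 TPM, and Mrpl48, for mL48, the lowest at 0.39 and 0.81 TPM. Mrpl58, whose human protein also acts as a peptidyl-tRNA hydrolase, had 5.85 and 8.24 TPM. The remaining 28 large-subunit genes ran from Mrpl14 to Mrpl35, and included Mrps30 at 2.34 and 2.03 TPM.

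In the body of the small subunit all 5 genes were detected, from Mrps12 down to Mrps17, for uS17m, at 1.89 and 2.73 TPM. In the head, Mrps24, for uS3m, was highest at 11.0 and 15.5 TPM and Mrps10 lowest by mean, with Mrps14, for uS14m, close to it at 0.42 and 0.56 TPM and 3 of 5 detected. On the platform the levels ran from Mrps21 to Mrps6. Among the other 13 genes counted in the small subunit, Mrps36 was highest and Mrps31 lowest, and 9 were detected. The S18 family has 3 mammalian genes with separate places in the ribosome, and they differed in level. Mrps18a, whose product sits in the large subunit, had 9.82 and 8.73 TPM. Mrps18c, for bS18m on the platform, had 1.67 and 2.50 TPM, and Mrps18b, for mS40, had 0.76 and 0.63 TPM. The 3 genes kept the same order in both libraries without overlap.

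Higher members tended to have GC-rich and shorter transcripts. The median GC content was 55.3% for the 25 highest members, 52.4% for the middle 26 and 48.2% for the 26 lowest. Median transcript length was 739, 928 and 1114 bases in the same order. Across the 77 members, Spearman's rho between GC content and mean TPM was 0.693, beside 0.299 over all 21474 protein-coding genes. With CPM in place of TPM it was 0.683. For length, rho was -0.476 with TPM and -0.184 with CPM among members, and 0.0903 with TPM over all protein-coding genes. These coefficients describe genes of the same 2 libraries, and GC content can also move how well a fragment is sequenced, a part that was not tested. All 24 members with a GC content of 54% or more were detected, against 31.8% of protein-coding genes in that range, and 8 of 19 members under 48% were detected, against 9.91% of protein-coding genes. These GC bounds were chosen after the values were seen.

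**Figure D2:**
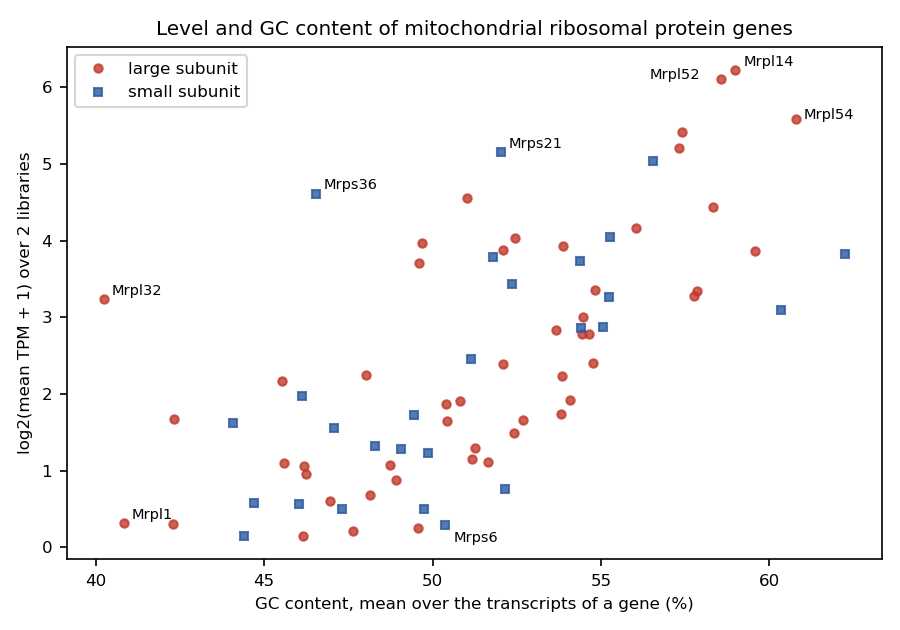
Mean level over the libraries, as log2(TPM + 1), against the GC content of the transcripts for the 77 members, with large-subunit genes as circles and small-subunit genes as squares. Mrpl14, Mrpl52 and Mrpl54 stand at the GC-rich top right, Mrps36 and Mrpl32 lie above other genes of similar GC content, and Spearman's rho over the members is 0.693.

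Most other lists of genes for mitochondrial gene expression had lower medians than the members. Of 5 mitochondrial ribosomal proteins with other symbols, 3 were detected, with a median of 9.87 and 11.7 TPM. Aurkaip1, for mS38, had 58.5 and 45.6 TPM and Dap3, for the GTP-binding mS29, 9.87 and 19.7 TPM, while Ptcd3, for mS39, had 0.22 and 0.25 TPM. Ribosome assembly factors had a median of 0.31 and 0.80 TPM with 6 of 25 detected, led by Mpv17l2 at 10.6 and 17.3 TPM and Malsu1 at 3.82 and 4.99 TPM, with Gtpbp10 lowest at 0.03 and 0.02 TPM. Translation factors and the insertase Oxa1l had 4 of 14 detected. Oxa1l had 3.08 and 2.64 TPM, the elongation factor Tufm 1.70 and 3.91 TPM, and the release factor Mtrf1 no counts. Of 17 mitochondrial tRNA synthetases 6 were detected, among them Lars2 at 5.75 and 1.37 TPM and Sars2 at 2.61 and 4.40 TPM, with Wars2 lowest at 0.04 and 0.01 TPM. For transcription and RNA stability 3 of 10 genes were detected, with Pnpt1 at 6.59 and 2.89 TPM, the polymerase Polrmt at 2.49 and 2.52 TPM, and the elongation factor Tefm at 0.02 and 0 TPM. In each of these 5 lists the share detected was below the 77.9% of the members.

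The messenger RNAs that this ribosome translates summed to 911 TPM in library 1 and 904 TPM in library 2, which was 1.32 and 1.19 times the sum of the members. The highest by mean over the libraries were mt-Atp8, an ATP synthase subunit, at 212 and 162 TPM and mt-Nd4l, a complex I subunit, at 138 and 149 TPM, with mt-Atp6 at 154 and 76.9 TPM next. The cytochrome oxidase gene mt-Co3 was listed at 0 in both, and copies of mitochondrial sequence in the nuclear genome make levels of this group uncertain. The cytoplasmic ribosomal proteins formed a separate range. For them the median over 81 genes was 47.1 and 91.7 TPM, 14.1 and 23.3 times the member median, and 78 were detected. By mean level they ran from Rplp1 at 3661 and 5130 TPM and Rpl41 at 2598 and 1767 TPM to the paralog Rpl10l, listed at 0. The member sum was 3.04% and 2.61% of the sum of the cytoplasmic ribosomal proteins (2.82 ± 0.308).

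**Figure D3:**
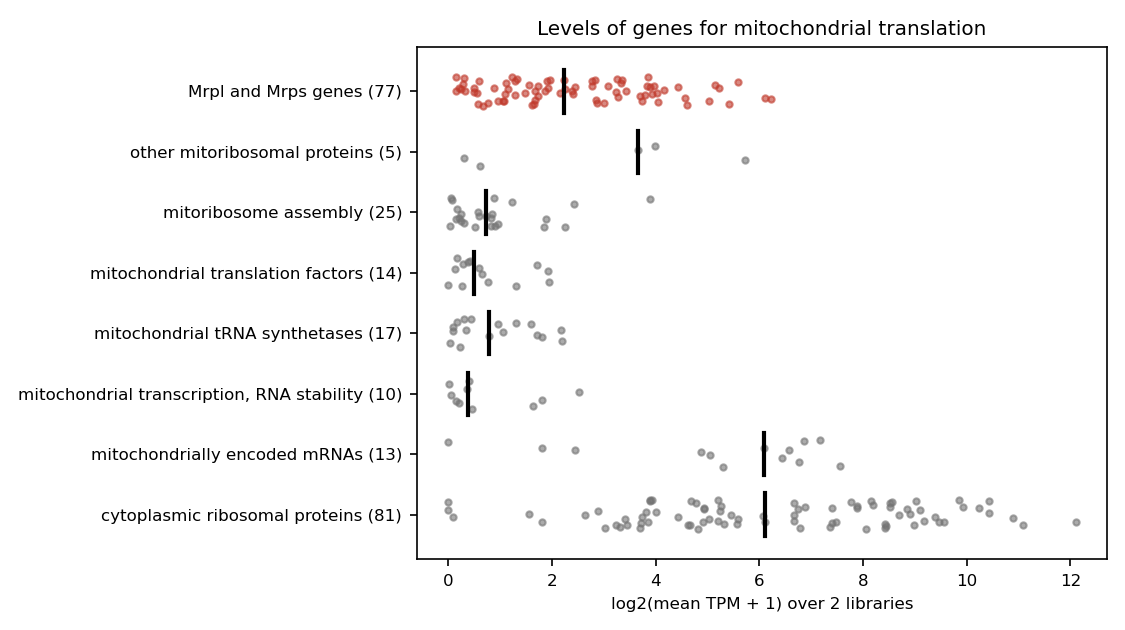
Mean level of each gene, as log2(mean TPM + 1), for the mitochondrial ribosomal protein genes (top row) and 7 other gene lists, with the number of genes in brackets and a bar at the median. The median of the members lies above those of the assembly, translation factor, tRNA synthetase and transcription lists and below those of the mitochondrially encoded messenger RNAs and the cytoplasmic ribosomal proteins.

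The transcript to which the reads were assigned was not always the coding one. Of the 63 members with 50 or more counts in both libraries, 47 were led by a transcript that GENCODE M21 calls protein coding, 9 by a retained intron, 4 by a processed transcript and 3 by a transcript subject to nonsense-mediated decay. For 15 of the 63 only a single transcript was listed, so its lead was fixed in advance, as for the decay transcript of Mrpl32. Over all members, coding transcripts held 71.1% of the TPM in library 1 and 72.2% in library 2. Mrpl14 was the largest case. Its leading transcript, a processed transcript of 510 bases, took 79.2% of the gene's TPM in library 1 and 83.7% in library 2. In coding transcripts alone Mrpl14 had 15.3 and 11.2 TPM, so most of its level lay in the noncoding one. For Mrpl51, for mL51, a retained-intron transcript of 580 bases took 88.0% and 87.9%, which left 1.63 and 1.36 TPM in coding transcripts. A decay transcript of 820 bases took 91.3% and 91.9% of the TPM of Mrps11, for uS11m of the platform.

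Other leading transcripts depended on the measure or the library. A processed transcript of 434 bases took 60.4% and 62.7% of the TPM of Mrpl2, whereas by counts a coding transcript of 1031 bases led. A retained-intron transcript of 451 bases took 39.8% and 28.7% of the TPM of Mrps5, for uS5m, and by counts a coding transcript led there too. For Mrps15, for uS15m, a processed transcript of 1037 bases took 66.9% in library 1 and 45.2% in library 2, where a coding transcript led. In all, 53 of the 63 members had the same leader in both libraries, and 59 had the same leader by TPM and by counts. Both numbers include the 15 members with a single transcript, which could not differ. Transcript shares are estimates from reads that several transcripts share, and the transcript types are those of M21 while the counting used M4.

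Many members share a promoter region with a gene on the other strand. Distances here are between gene starts, and the pairs include genes that overlap at their starts. A gene on the opposite strand that starts within 1000 bases, back to back, was found for 33 of 77 members (42.9%), against 10.8% of all protein-coding genes and 20.5% of detected ones. Among detected members it was 45%. Within 300 bases the count was 22 members (28.6%), against 7.49% and 14.8%. The 33 neighbours were of many kinds, and 17 of them were detected. The member was the higher gene in both libraries in 23 pairs, the neighbour in 7, and 3 were mixed. Mrps11 and Mrpl46, both members, are entered from both sides and so stand in the 23 and in the 7. In some pairs exons overlap, among them Mrpl14 with Tmem63b, Mrpl36 with Ndufs6, Mrpl48 with Rab6a and Mrps11 with Mrpl46. With no strand setting named in the sources used here, the levels of such pairs may share reads. Mrps12 and Sars2, 172 bases apart, both serve mitochondrial translation, with 32.3 and 31.4 TPM for Mrps12 and 2.61 and 4.40 TPM for Sars2. Mrpl54 starts 26 bases from Apba3, an adaptor protein gene, which had 2.71 and 2.69 TPM. Mrpl14 starts 583 bases from Tmem63b, a membrane protein gene at 1.96 and 1.40 TPM.

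In the 7 pairs with the opposite order, neighbour levels ranged widely, from Ndufb5, a complex I gene beside Mrpl47, at 0.62 and 1.71 TPM to Fau. Rab6a beside Mrpl48 had 3.88 and 3.09 TPM, and Ppp1r10 beside Mrps18b had 6.42 and 6.15 TPM. Mrpl49, for mL49, had 6.57 and 5.64 TPM, 59 bases from Fau at 489 and 611 TPM, which encodes a cytoplasmic ribosomal protein fused to a ubiquitin-like one. Mrpl51 had 23.1 and 22.0 TPM, 100 bases from the condensin gene Ncapd2 at 82.8 and 113 TPM. Mrpl36, for bL36m, had 2.90 and 4.53 TPM, 29 bases from the complex I gene Ndufs6 at 51.2 and 53.9 TPM. Mrps11 and Mrpl46, which overlap and whose starts lie 412 bases apart, were the only pair of 2 members. Their levels were 10.4 and 14.4 TPM for Mrps11 and 1.59 and 2.03 TPM for Mrpl46, for mL46. Mrps18c and Helq, a DNA helicase gene 29 bases away, had nearly equal levels, with 1.67 and 2.50 TPM for Mrps18c and 1.51 and 2.25 TPM for Helq. Across the 33 pairs, Spearman's rho of the mean levels was 0.191, a description over pairs of the same libraries in which 1 pair is entered from both sides. Members with a neighbour had a median of 4.24 TPM, and the 44 without one had 2.86 TPM.

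**Figure D4:**
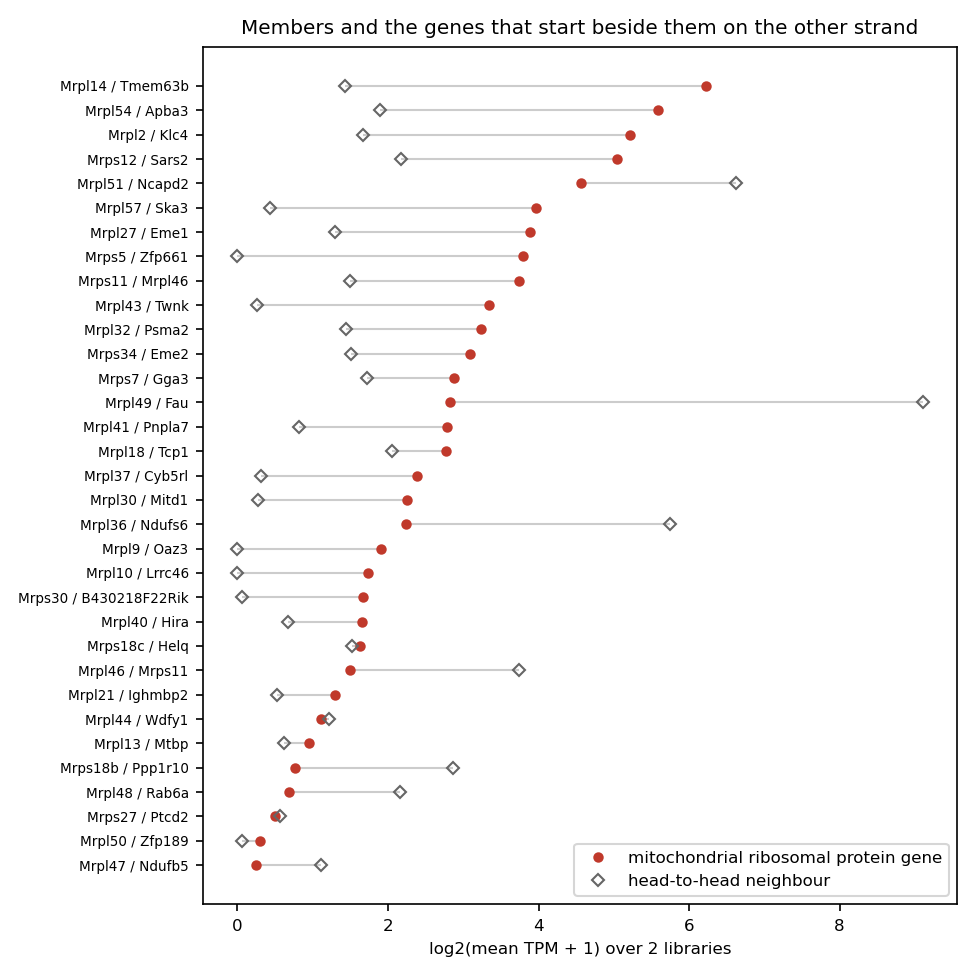
Mean level over the libraries, as log2(TPM + 1), of members with a back-to-back neighbour (filled circles) and of that neighbour (open diamonds), 1 pair per row. In 23 of 33 pairs the member was higher in both libraries, with the pair of Mrps11 and Mrpl46 entered from both sides. Fau and Ndufs6 are the neighbours furthest above their member.

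Between the libraries, 41 of 77 members (53.2%) differed by more than counting error in an exact binomial test with Benjamini-Hochberg adjustment over 10955 genes, against 44.2% of all genes tested. Members higher in library 1 numbered 24 (31.2%), against 22.1% of all genes, and those higher in library 2 numbered 17 (22.1%), against 22% of all genes. Among genes with 100 or more counts over both libraries the shares past the test were nearer, 56.1% of 66 members and 55.5% of 6945 genes. The test compares 2 libraries of the same group, not conditions, and covers counting error only. The median log2 ratio of library 1 over library 2, in scaled CPM with a pseudocount of 1, was 0.03 for members with a mean of 1 CPM or more, and 0.01 for all genes. Differences were small in size, with 76 members within 2-fold and 72 within 1.5-fold on this scale, which understates the change of low genes.

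Mrps21 was the 1 member beyond 2-fold on this scale. In scaled CPM without a pseudocount the low-count Mrpl13 (2.52-fold) and Mrpl23 (2.16-fold) were also more than 2-fold higher in library 2. Mrps33 (0.71 and 0.29 scaled CPM) and Mrps10 (1.00 and 0.47), also with few counts, were more than 2-fold higher in library 1. Mrps21 had 478 counts in library 1 and 1209 in library 2, or 9.40 and 27.1 scaled CPM, a log2 ratio of -1.44 (adjusted p = 8.21e-94, exact binomial test with Benjamini-Hochberg adjustment). The deposited intervals around its TPM, 14.9 to 18.1 in library 1 and 49.6 to 55.8 in library 2, did not overlap. Of its 31-base words, 14.5% also occur in other genes, mainly Gm6181. Among members that reached 100 counts in either library, the next higher in library 2 were Mrpl13, for uL13m, with 48 and 106 counts (log2 ratio -0.80), Mrpl23, for uL23m of the tunnel exit, with 65.4 and 123 counts (-0.72), Mrpl32, for bL32m, with 352 and 534 counts (-0.71) and Mrpl22, for uL22m, with 90 and 124 counts (-0.45). The adjusted p-values of these 4 in the same exact binomial test ran from 1.09e-14 to 0.00415. Shared words limit 2 of these ratios as well. For Mrpl23, 14.2% of the words occur in other genes, mainly its pseudogene Mrpl23-ps1, and for Mrpl22 29.8%, all in Gm6997. Mrpl23 and Mrpl22 both line the peptide tunnel. Of the 7 tunnel genes, 4 passed the test (57.1%), near the 53.2% of all members and beside 44.2% of all genes. Higher in library 2 were 3 of them, and 1, Mrpl17, was higher in library 1. Over all genes these directions held 22.0% and 22.1%, and 7 genes are too few to set a class apart.

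In the other direction, Mrpl39, for mL39, was highest in ratio on the scale with a pseudocount. It had 574 counts in library 1 and 306 in library 2 and a log2 ratio of 0.64 (adjusted p = 1.27e-11, exact binomial test). Under the same count limit it was followed by Mrps2, for uS2m, with 298 and 168 counts (0.52), Mrps16, for bS16m, with 210 and 128 (0.41), Mrps26, for mS26, with 1028 and 673 (0.40), and Mrps7, for uS7m of the head, with 1220 and 812 (0.38). Of these 5, 4 belong to the small subunit. The 24 members past the test as higher in library 1 were 13 of the 50 large-subunit and 11 of the 27 small-subunit genes. The share of all genes in this direction was 22.1%, and 28.3% among genes with 100 or more counts over both libraries. A difference between the subunits was not tested. Mrpl57, for mL63, and Mrpl3 passed the test as higher in library 1 by CPM and had a slightly higher TPM in library 2. Mrpl57 also had the most counts of any member, 3097 and 2457, while its length-corrected level was 14.5 and 14.8 TPM.

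**Figure D5:**
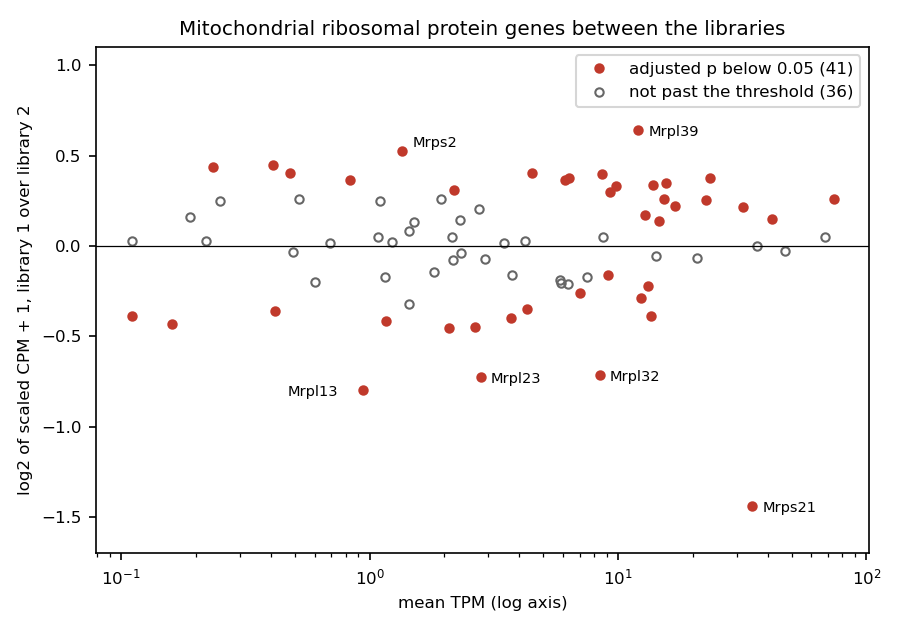
Log2 ratio of scaled CPM + 1, library 1 over library 2, against mean TPM (log axis) for each of the 77 members, with the 41 past an adjusted p of 0.05 filled. Most filled points lie within 0.5 of 0, Mrps21 stands at -1.44 and Mrpl39 at 0.64.

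Some members are less certain because their sequence is shared. More than 10% of the 31-base words of 29 members also occur in transcripts of another gene. The largest shares were 84.4% for Mrpl53, mostly with the overlapping Gm42688, 73.8% for Mrps34, mostly with Mapk8ip3, and 68.9% for Mrps25, all with Nr2c2. Mrpl53, for mL53, had 13.2 and 15.2 TPM, Mrps34, for mS34, 6.46 and 8.58 TPM and Mrps25, for mS25, 1.26 and 1.62 TPM, and these 3 levels are uncertain. Exons overlapped a gene on the opposite strand in 28 members and on the same strand in 7, and since no strand setting is named in the sources used here, reads of such partners cannot be told apart. In 66 of 77 members the expected counts were whole within 0.01 in both libraries.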

How the data were processed

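RNA was measured in 2 libraries of 1 group, grouped by the labels. The authors deposited expected counts (estimates, with shared reads divided), TPM, posterior mean TPM and FPKM for each gene and transcript, the percent of a gene's TPM in each transcript, and bounds around the TPM, treated here as a score, per the file headers. Reads were aligned to mm10 with GENCODE M4 per the listing deposited with the tables; the sources used here do not name an aligner, a quantifier or a strand setting. Rows without an Ensembl identifier held 0 counts. Depth is given with the results, and intervals or limits on counts cover counting error only.

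Symbols, positions, transcript types and GC content came from GENCODE M21 on mm10, and promoters from RefSeq (GRCm38.p6). Expected counts were rounded, and library sizes were scaled with edgeR 4.0.16 in R 4.3.3 (factors 0.993 and 1.01). Genes reaching 10 counts over both libraries were tested by an exact conditional binomial test, two-sided, with Benjamini-Hochberg adjustment at 0.05. The procedure was tried on simulated data with counting error alone, so wider spread between libraries was not covered. Ratios are library 1 over library 2. The members, lists and roles were chosen with earlier results of these data known. Genes named were the 8 highest and 8 lowest members, the highest and lowest of each role, the Mrps18 genes, Mrps30, the 5 largest ratios in each direction with 100 or more counts, the first 6 with a noncoding leading transcript, and, of each other list, the 2 highest and the lowest. Members sharing over 10% of their words are given as a count with 3 examples. Further genes were picked with their values in view. Alternatives were DESeq2 1.42.0 size factors, total counts, other minima, units and distances, and each library alone. Python 3.11.15, numpy 2.4.6, pandas 2.3.3, scipy 1.17.1 and matplotlib 3.10.9 were used.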

Additional observations from a re-analysis of the deposited data

Results flagged for a closer look

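Pseudogenes of members were outside the comparisons, and 2 of them had counts above the 3 that a count of 0 allows, in both libraries. Mrpl23-ps1 had 4.57 expected counts in library 1 and 32.96 in library 2, and 95.5% of its 31-base words occur in other genes, almost all in Mrpl23. Mrpl48-ps had 13.27 expected counts in library 1 and 6.67 in library 2, and 56.8% of its words occur in Mrpl48. No counts of Mrps36-ps1 and Mrps36-ps3 were recorded in either library.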

How the results depend on the processing

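The count of detected members moved to 33 at a threshold of 5 TPM, by the stricter level itself. The median member level of 3.65 TPM became 6.59 in FPKM, 6.57 over detected members alone and 1.95 TPM in protein-coding transcripts alone, an alternative chosen after seeing the data, under which 47 members were detected. With posterior mean TPM the member share outside the globins was 0.465%, and the cause was not tested. At 200 counts in both libraries 31 members were led by a coding transcript, of 43 that remained. The other 42 values of the main results stayed within 1.5 times the reported count or 1 SD of the reported value, or on the same side of 0, and the 30 single-gene ratios kept their direction. Part of this was fixed in advance. Each of 2 libraries always lies within 1 SD of their mean, so a library alone could not move a mean. The median log2 ratio of 0.03 was read against an SD over members of 0.35, too wide to show a move. The widest moves among all these values were 33 members with a neighbour to 25 within 500 bases and 22 within 300 bases, 4837 genes past the test to 3853 at a minimum of 100 counts, and a Mrpl13 log2 ratio of -0.80 to -1.13 with total counts outside the globins. Each library alone gave 60 to 62 detected members, medians of 3.35 to 3.94 TPM and 45 to 48 coding-led members. Of the 41 members that passed the test between the libraries, 40 also passed with DESeq2 size factors, 40 with total counts and 41 with counts outside the globins. Leaving out a library leaves no test between them. No paired analysis was possible because the series holds 1 group. Members such as Mrps31, with 15 and 12 counts, are limited by depth.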
